A study of Mus musculus with 6 samples.

Results

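The 45 genes described here code for glycoproteins and proteoglycans of the extracellular matrix and for the enzymes and chaperones that modify and crosslink its fibres. They were taken by name from a fixed list, whatever their level, out of 25308 genes with a count in RNA-seq of C2C12, a myoblast line from mouse muscle. That list, and the other lists used below, were chosen with earlier results of these data known. By role they comprise 10 adhesive and matricellular glycoproteins, 3 basement membrane glycoproteins, 13 proteins of elastic fibres and microfibrils, 4 latent TGF-beta binding proteins, 5 proteoglycans, 4 lysyl oxidases and 6 proteins of collagen modification and processing. RNA came from 3 groups of 2 libraries, all of unmodified C2C12 cells with no transgene. Reserve cells and myotubes were both held for 7 days in differentiation medium with 2% horse serum, in which myoblasts leave the cell cycle and fuse. Reserve cells are the cells of that culture that stay mononucleated, and myotubes are the multinucleated fibres, and a mild trypsin treatment parted them. Myoblasts were harvested near confluency, before differentiation. Per the methods, C2C12 cells were grown until then with fetal bovine serum, at a higher share than the 2% of horse serum. Medium and cell state thus differ together in every comparison over myoblasts and cannot be told apart there. The methods of the study give a shorter differentiation time for mature myotubes than the series record does. Replicates are described as biological in the series record, but not as separate cultures or passages, so p-values measure only the spread between these libraries, which may be technical. A cell line such as C2C12 holds no separate fibroblasts, vessels or leukocytes by origin, which limits it as a model of muscle tissue.

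The extracellular matrix is built from collagen fibrils, an elastic system of fibrillin microfibrils and elastin, and basement membranes, all of which are bound together by multidomain glycoproteins and by proteoglycans with long sugar chains. Fibronectin links these networks to integrins on the cell. Lysyl oxidases crosslink collagen and elastin outside the cell, after prolyl and lysyl hydroxylases have modified collagen in the endoplasmic reticulum. In muscle, each fibre lies within a basement membrane under which satellite cells, the stem cells of the tissue, reside. Matrix from fibroblasts and satellite cells is known to shape that niche.

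Libraries held 18760145 to 19214940 estimated counts in reserve cells, 15658875 to 19344981 in myotubes and 15795389 to 20055078 in myoblasts. The log2 level of replicates was correlated across genes with r = 0.99, 0.99 and 0.991 in reserve cells, myotubes and myoblasts, where genes are not independent replicates. The labels were checked against marker lists, as sums of CPM, counts scaled by TMM factors to a common library size. The 16 sarcomere genes summed to 12731 and 13347 CPM in reserve cells, 53677 and 53107 CPM in myotubes, and 533 and 575 CPM in myoblasts. The 10 genes of S phase and mitosis summed to 964 and 956 CPM in reserve cells, 224 and 241 CPM in myotubes, and 2231 and 2274 CPM in myoblasts. Sarcomere RNA was thus present in the libraries of the mononucleated cells at a level far above that of myoblasts, and RNA of dividing cells in those of myotubes. Markers of macrophages and leukocytes (6 genes) summed to at most 3.92 CPM, those of endothelium (6 genes) to at most 1.21 CPM and those of adipocytes (6 genes) to at most 13.97 CPM in any library. Fibroblast markers other than matrix genes (10 genes) summed to 1412 and 1269 CPM in reserve cells, 648 and 588 CPM in myotubes, and 1442 and 1291 CPM in myoblasts. Ptprc, Adgre1, Tie1, Emcn, Adipoq, Plin1, Lep and Cidec were at 0 in every library, as was Tcf21 among the fibroblast markers. The other genes of these lists had counts in some library. Markers of chondrocytes and osteoblasts (6 genes) summed to 134 and 149 CPM in reserve cells. They summed to 77 and 83.3 CPM in myotubes, and 142 and 147 CPM in myoblasts. Genes of the mitochondrial genome took 2.36% and 2.36% of counts in reserve cells, 5.3% and 5.37% in myotubes, and 1.89% and 1.9% in myoblasts, and the calls counted below were as many without them. In such bulk libraries, fewer cells of a type and less RNA per cell cannot be told apart.

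Summed over the list, reserve cells carried the most RNA of these genes and myotubes the least. Together the 45 genes took 3.54% and 3.62% of all counts in reserve cells, 0.759% and 0.776% in myotubes, and 1.96% and 1.94% in myoblasts. Fn1 and Thbs1 gave most to the sum in reserve cells, at mean levels of 14350 and 5287 CPM. The 3 basement membrane glycoproteins instead summed highest in myoblasts, at 2994 and 3017 CPM, against 2439 and 2651 CPM in reserve cells. Of the 45, 41 passed the filter on low counts and were tested. Vtn, the serum adhesive protein vitronectin, and Fbn2, a fibrillin of developing tissue, had 0 counts in all 6 libraries, where a count of 0 allows a level of up to 3 counts. Eln, which codes for elastin itself, had 5 and 4 counts in myotubes and 0 in every reserve cell and myoblast library. Lum, the collagen-binding proteoglycan lumican, had 6 and 10 counts in reserve cells and 0 in every other library. With the group at 0 set to a floor of 3 counts, Eln was 3.76-fold higher in myotubes than in reserve cells. With the same floor, Lum was 4.26-fold higher in reserve cells than in myotubes and 5.29-fold higher than in myoblasts. Such folds allow for the counting error of the group at 0 only, and not for that of the higher group.

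Both reserve cell libraries lay above the 4 others for 22 of the 41 genes, against 13.2% of all 15467 genes tested. Both myotube libraries lay above the 4 others for 0 of the 41, against 31.8% of all genes. Myoblasts were highest in this sense for 13 of the 41, against 27.9% of all genes. The other 6 genes, Efemp1, Mfap2, Mfap4, P4ha2, Serpinh1 and Tgfbi, had no group that lay apart above the rest.

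In reserve cells compared with myoblasts, 23 of the 41 genes rose and 13 fell at an adjusted p under 0.05, and 5 did not pass. Over all genes tested, 24.7% rose and 22.4% fell. The median log2 fold change was 0.40 over the 41 genes and 0.01 over all genes. A change of at least 2-fold was called for 13 of the genes that rose and 6 of those that fell, against 10.5% and 6.35% of all genes.

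Myotubes compared with myoblasts gave the opposite balance, with 7 genes higher, 30 lower and 4 that did not pass. Of all genes tested, 32.7% rose and 32.9% fell in that comparison. The median log2 fold change was -0.87 over the 41 genes and 0.0045 over all genes, and 4 of the genes that rose and 20 of those that fell did so by at least 2-fold, against 16.6% and 18.5% of all genes. Scaled by library totals in place of TMM factors, 3737 of 10241 genes called were higher in myotubes, against 5056 of 10137 with TMM, and 5 and 30 of the 41 genes were called higher and lower. Library totals moved the median of all genes to -0.27 in this comparison.

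Between the populations of the differentiated culture, 36 of the 41 genes were higher in reserve cells than in myotubes, 0 were lower and 5 did not pass. Among all genes, 28.9% were higher and 27.6% lower. The count of 0 lower genes came from edgeR, was also 0 at an unadjusted p under 0.05, and was 0 with DESeq2. The median was 2.06 over the 41 genes and 0.0067 over all genes, and 29 of the 36 were higher by at least 2-fold. Of all genes, 14% were higher and 9.41% lower by at least 2-fold. By library totals, 5740 of 8738 genes called were higher in reserve cells, against 4467 of 8739 with TMM, the median of all genes was 0.21, and 37 of the 41 genes were called higher.

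**Figure D1:**
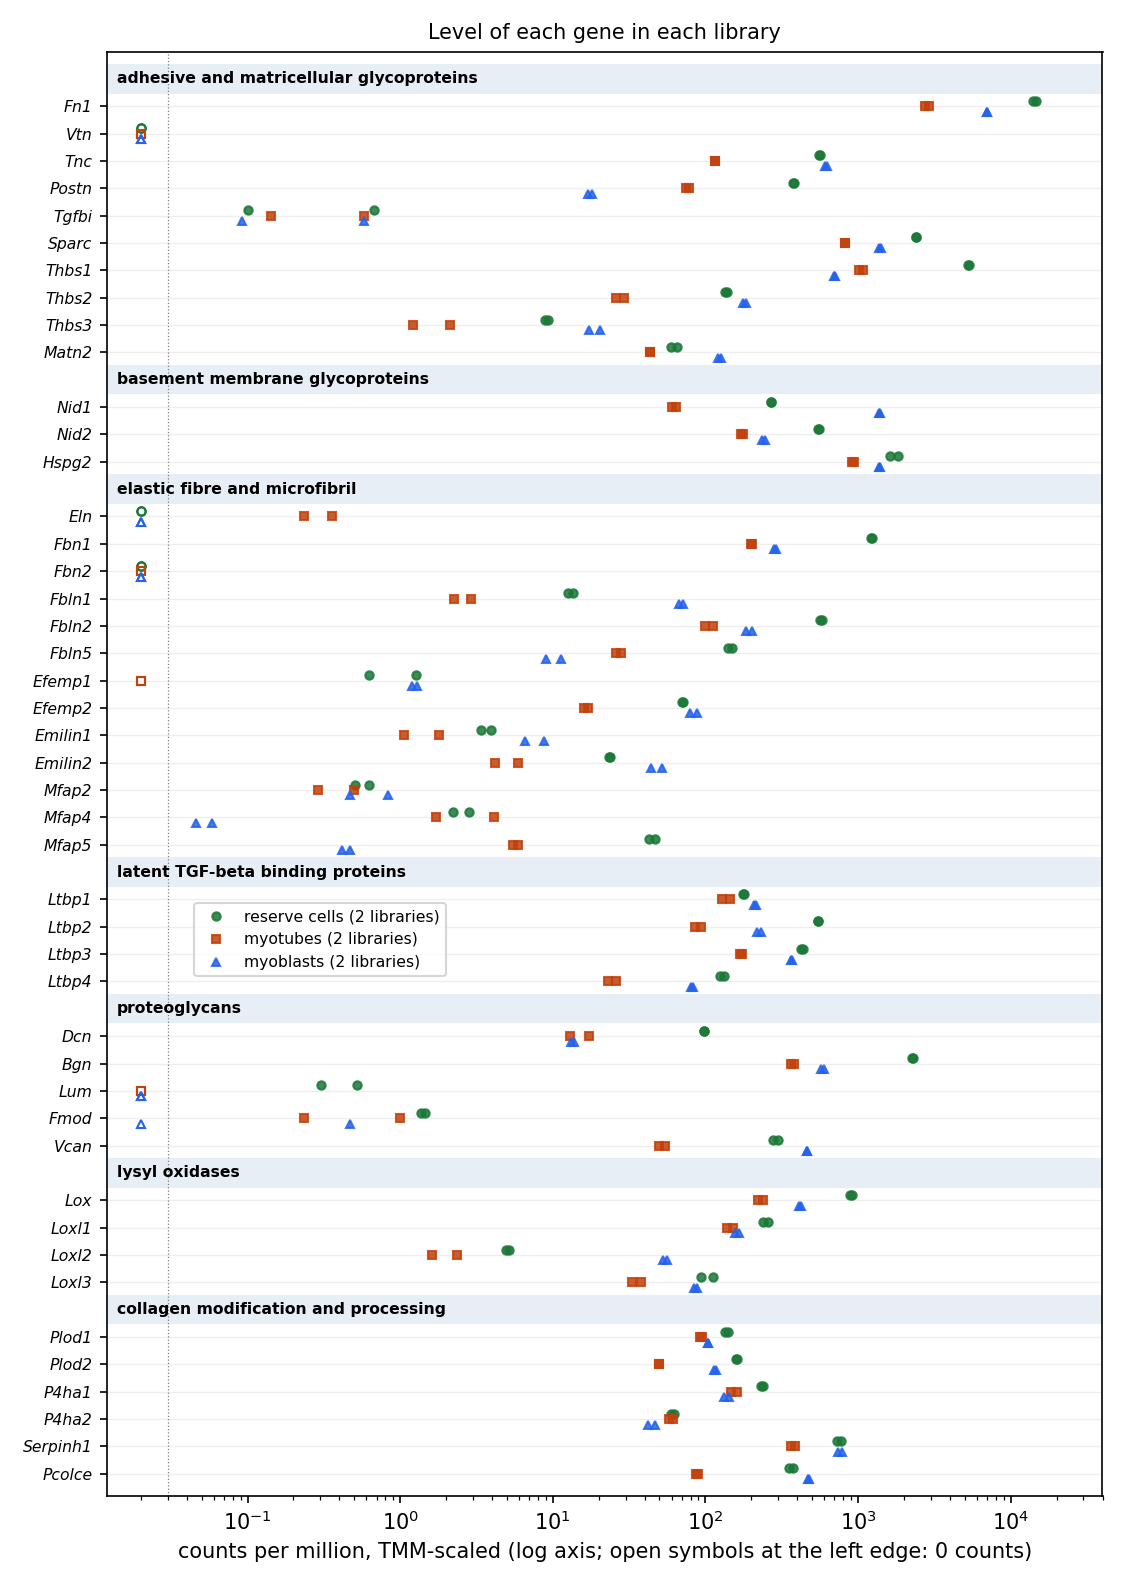
Level of each of the 45 genes in each library, in CPM on a log axis, grouped by role. Green circles are reserve cells, orange squares myotubes and blue triangles myoblasts, 2 libraries each, with open symbols at the left edge for 0 counts. Fn1 lies farthest right in every group, with 2 reserve cell libraries above both other groups, and green symbols lie right of orange ones for nearly every gene.

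Among the 9 adhesive and matricellular glycoproteins tested, 4 rose and 4 fell in reserve cells compared with myoblasts. Of all genes, 24.7% rose and 22.4% fell in that comparison. Fn1 codes for fibronectin, the main ligand of integrins in loose matrix. It had 14092 and 14608 CPM in reserve cells, 2747 and 2919 CPM in myotubes, and 6965 and 6978 CPM in myoblasts. Its reserve cell libraries lay above those of myoblasts (log2 fold change 1.04, SE 0.034, adjusted p = 2.7e-11), and its myotube libraries lay below them (log2 fold change -1.30, SE 0.034, adjusted p = 1.1e-12). TPM is a level per transcript length that sums to the same total in every library. In TPM, Fn1 was the most abundant of the 45 genes in reserve cells (4506 ± 188) and in myoblasts (2206 ± 16.5). In myotubes Fn1 had 677 ± 33.7 TPM, just below Sparc at 682 ± 13.3 TPM (SD, n = 2 for each).

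Postn and Thbs1 were higher in both populations of the differentiated culture than in myoblasts. Postn, or periostin, is a matricellular protein that binds collagen and is known from healing tissue. It had 373 and 379 CPM in reserve cells, 77.9 and 74.8 CPM in myotubes, and 18.2 and 17 CPM in myoblasts, with no overlap between any groups. Periostin RNA rose in reserve cells (log2 fold change 4.42, SE 0.066, adjusted p = 1e-14) and in myotubes (log2 fold change 2.12, SE 0.063, adjusted p = 3.8e-12). Thbs1 codes for thrombospondin 1, which activates latent TGF-beta. It had 5226 and 5347 CPM in reserve cells, 1022 and 1074 CPM in myotubes, and 698 and 703 CPM in myoblasts. Its log2 fold change over myoblasts was 2.92 (SE 0.038) in reserve cells and 0.58 (SE 0.035) in myotubes, with adjusted p = 2.6e-15 and 6e-09.

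The related thrombospondins went the other way. Thbs2 had 138 and 135 CPM in reserve cells, 29.1 and 25.9 CPM in myotubes, and 176 and 186 CPM in myoblasts, so that it was lowest in myotubes and highest in myoblasts. It fell in reserve cells by 0.41 and in myotubes by 2.72 on the log2 scale, both compared with myoblasts, with adjusted p = 0.00023 and 1.6e-12. Thbs3 fell by 1.04 and 3.50 in the same comparisons, with 9.33 and 8.91 CPM in reserve cells, 2.13 and 1.22 CPM in myotubes, and 20.4 and 17.2 CPM in myoblasts. The gene overlaps Mtx1 on the opposite strand, and strand use is not stated for the counts, so reads of the pair may be mixed. The ratio of Thbs1 to Thbs2 in TPM was 38.4 and 40.1 in reserve cells, 35.5 and 42 in myotubes, and 4 and 3.84 in myoblasts.

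Sparc, a collagen-binding matricellular protein, had 2397 and 2390 CPM in reserve cells, 819 and 820.3 CPM in myotubes, and 1406 and 1369 CPM in myoblasts. It was higher in reserve cells than in myoblasts (log2 fold change 0.79, SE 0.034, adjusted p = 5.1e-10) and lower in myotubes than in myoblasts (log2 fold change -0.76, SE 0.034, adjusted p = 2.7e-10). Tnc codes for tenascin C, a large adhesion-modulating glycoprotein, and had 560.5 and 559 CPM in reserve cells, 116 and 116 CPM in myotubes, and 606 and 624 CPM in myoblasts. It fell in myotubes (log2 fold change -2.41, SE 0.043, adjusted p = 2.8e-14). The difference of -0.14 (SE 0.041) between reserve cells and myoblasts passed with all libraries (adjusted p = 0.014) but not without reserve cell replicate 1 (adjusted p = 0.0577), reserve cell replicate 2 (0.0609) or myoblast replicate 2 (0.121).

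Matn2, a matrilin that forms filaments with other matrix proteins, had 59.6 and 65 CPM in reserve cells, 43.1 and 43.4 CPM in myotubes, and 121 and 126 CPM in myoblasts. It fell on the log2 scale in both populations of the differentiated culture, by 0.99 in reserve cells and 1.51 in myotubes compared with myoblasts. Tgfbi, a TGF-beta induced integrin ligand, stayed at 0.0922 to 0.673 CPM in all 6 libraries, a depth at which no difference was detectable (adjusted p = 0.88 for reserve cells over myoblasts).

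The basement membrane glycoproteins split between their 2 nidogens, which bridge laminin and collagen IV. Nid1 had 268 and 271 CPM in reserve cells, 60.1 and 64 CPM in myotubes, and 1370 and 1399 CPM in myoblasts, and no groups overlapped. It fell in reserve cells (log2 fold change -2.36, SE 0.044, adjusted p = 9.9e-14) and further in myotubes (log2 fold change -4.48, SE 0.049, adjusted p = 2.1e-16) compared with myoblasts. Nid2 had 554 and 545 CPM in reserve cells, 170.3 and 178 CPM in myotubes, and 245 and 234 CPM in myoblasts. It rose in reserve cells (log2 fold change 1.20, SE 0.047, adjusted p = 1.7e-10) and fell in myotubes (log2 fold change -0.46, SE 0.047, adjusted p = 1.2e-06). The gene overlaps Rtraf on the opposite strand. In TPM, Nid2 exceeded Nid1 by 2.62 and 2.51 times in reserve cells and by 3.47 and 3.46 times in myotubes, while Nid1 exceeded Nid2 by 4.46 and 4.77 times in myoblasts. The more abundant nidogen transcript was therefore Nid2 in both populations of the differentiated culture and Nid1 in myoblasts.

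Hspg2 codes for perlecan, the heparan sulfate proteoglycan of basement membranes, and had 1617 and 1836 CPM in reserve cells, 911 and 941 CPM in myotubes, and 1379 and 1384 CPM in myoblasts. Its log2 fold change over myoblasts was 0.32 (SE 0.053) in reserve cells and -0.58 (SE 0.053) in myotubes, and both passed (adjusted p = 0.00055 and 3.2e-06).

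**Figure D2:**
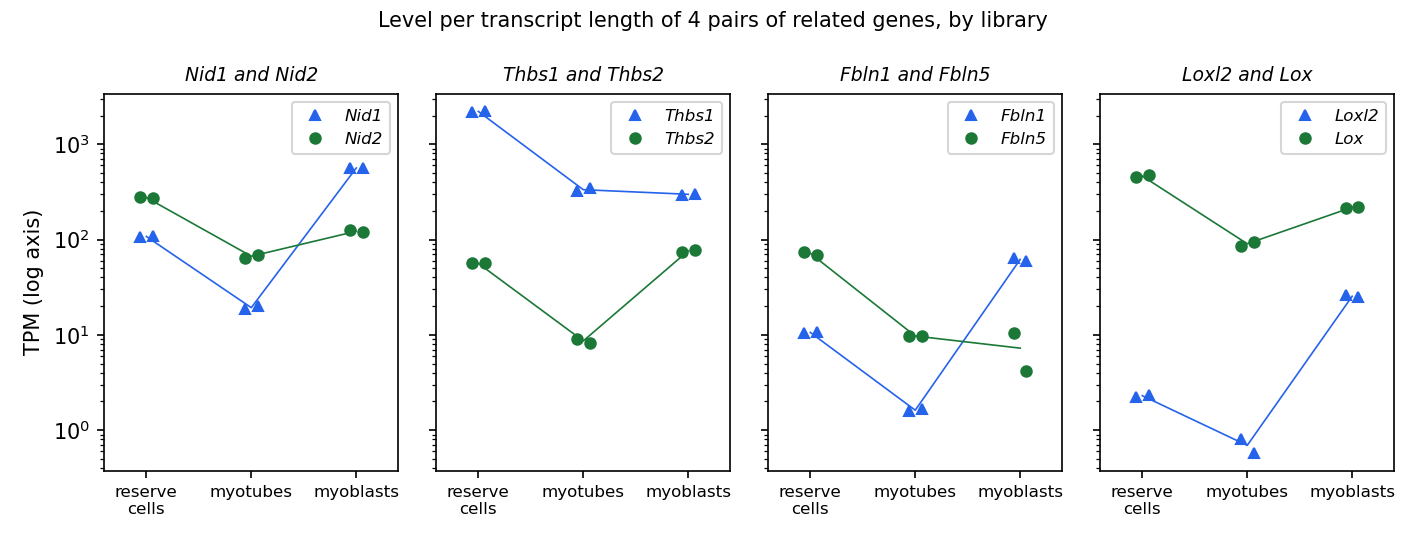
Level per transcript length (TPM, log axis) of 4 pairs of related genes in the 6 libraries, with reserve cells at the left, then myotubes and myoblasts, points for libraries and lines through group means. Nid2 lies above Nid1 and Fbln5 above Fbln1 in reserve cells and myotubes, and both orders are reversed in myoblasts, while Thbs1 lies above Thbs2 and Lox above Loxl2 in every group.

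Genes of elastic fibres and microfibrils spanned log2 fold changes of -2.40 to 6.65 between reserve cells and myoblasts, the widest span of the 7 roles. Of the 11 tested, 5 rose and 4 fell in reserve cells, and 3 rose and 7 fell in myotubes, both compared with myoblasts. Among all genes, 24.7% rose and 22.4% fell in reserve cells, and 32.7% rose and 32.9% fell in myotubes. Fbn1 codes for fibrillin 1, the backbone of microfibrils. It had 1209 and 1239 CPM in reserve cells, 200.04 and 203 CPM in myotubes, and 289 and 280.2 CPM in myoblasts. It rose in reserve cells (log2 fold change 2.11, SE 0.041, adjusted p = 1.6e-13) and fell in myotubes (log2 fold change -0.50, SE 0.041, adjusted p = 1.3e-07). Mfap5, a microfibril-associated glycoprotein, was low in myoblasts. It had 42.5 and 47 CPM in reserve cells, 5.48 and 5.87 CPM in myotubes, and 0.467 and 0.415 CPM in myoblasts, and its log2 fold change of 6.65 (SE 0.21) in reserve cells was the largest rise over myoblasts among the 41 genes (adjusted p = 2e-11). In myotubes it was 3.68 (SE 0.23), with adjusted p = 7.8e-09.

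Fibulins are short rod-like glycoproteins that help to assemble elastic fibres, and they moved in opposite directions. Fbln5, which binds elastin and integrins, had 149 and 141 CPM in reserve cells, 26 and 28 CPM in myotubes, and 11.3 and 9.08 CPM in myoblasts. It rose in reserve cells (log2 fold change 3.84, SE 0.11, adjusted p = 6.9e-12) and in myotubes (log2 fold change 1.41, SE 0.11, adjusted p = 7.2e-08). Fbln1 had 12.7 and 13.5 CPM in reserve cells, 2.92 and 2.27 CPM in myotubes, and 71.5 and 66.8 CPM in myoblasts, and fell in reserve cells (log2 fold change -2.40, SE 0.12, adjusted p = 2.2e-09) and in myotubes (log2 fold change -4.75, SE 0.15, adjusted p = 5.7e-12). In TPM, Fbln5 exceeded Fbln1 by 7.05 and 6.49 times in reserve cells and by 6.11 and 5.9 times in myotubes, and Fbln1 exceeded Fbln5 by 6.2 and 14.3 times in myoblasts. The Fbln5 levels behind the last pair were 10.3 and 4.17 TPM in myoblasts, farther apart than the CPM above. Fbln2 had 580.1 and 567 CPM in reserve cells, 99.5 and 112 CPM in myotubes, and 202 and 185 CPM in myoblasts, with a log2 fold change over myoblasts of 1.57 (SE 0.062) in reserve cells and -0.87 (SE 0.063) in myotubes.

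Efemp2, or fibulin 4, which brings lysyl oxidase to elastin, had 70.2 and 70.9 CPM in reserve cells, 17.1 and 16.1 CPM in myotubes, and 79.3 and 87.7 CPM in myoblasts. It fell in myotubes (log2 fold change -2.34, SE 0.09, adjusted p = 5.1e-11). Its smaller difference between reserve cells and myoblasts (log2 fold change -0.24, SE 0.081, adjusted p = 0.024) did not pass without reserve cell replicate 1 (adjusted p = 0.0971), reserve cell replicate 2 (0.0762) or myoblast replicate 2 (0.203), and the gene overlaps Mus81 on the opposite strand. Efemp1, a related fibulin, had 37 counts over both reserve cell libraries, 0 over both myotube libraries and 48 over both myoblast libraries. With the myotubes set to a floor of 3 counts, Efemp1 was 9.85-fold higher in reserve cells than in myotubes. With the same floor it was 12.9-fold lower in myotubes than in myoblasts, and the counting error of the higher group was again left out.

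The emilins, glycoproteins at the interface of elastin and microfibrils, were highest in myoblasts. Emilin2 had 23.5 and 23.6 CPM in reserve cells, 4.2 and 5.93 CPM in myotubes, and 52 and 43.8 CPM in myoblasts, and its log2 fold change was -1.02 (SE 0.14) in reserve cells and -3.23 (SE 0.17) in myotubes. Emilin1 had 3.93 and 3.37 CPM in reserve cells, 1.07 and 1.8 CPM in myotubes, and 6.53 and 8.71 CPM in myoblasts. It fell in myotubes compared with myoblasts (log2 fold change -2.39, SE 0.35, adjusted p = 4.1e-05). Its difference of -1.06 (SE 0.32) in reserve cells (adjusted p = 0.015) did not pass without reserve cell replicate 2 (adjusted p = 0.0881) or myoblast replicate 2 (0.146). Mfap4, a microfibril-associated protein with a fibrinogen-like domain, had 99 counts over the reserve cell libraries, 95 over the myotube libraries and 2 over the myoblast libraries. Its ratio to myoblasts was 49.1 in reserve cells (95% counting interval 13.2 to 411) and 59 in myotubes (15.9 to 494), and reserve cells and myotubes overlapped. Mfap4 overlaps Mapk7 on the opposite strand. Mfap2 stayed at 0.291 to 0.83 CPM, with no difference detectable at that depth.

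Latent TGF-beta binding proteins tether the inactive growth factor to microfibrils. In reserve cells 3 of the 4 rose compared with myoblasts, against 24.7% of all genes. In myotubes all 4 fell, against 32.9% of all genes. Ltbp2, which binds fibrillin but not TGF-beta, had 546 and 546 CPM in reserve cells, 93.3 and 85.6 CPM in myotubes, and 230.1 and 218 CPM in myoblasts, and its log2 fold change was 1.28 (SE 0.052) in reserve cells and -1.33 (SE 0.054) in myotubes. Ltbp4 had 124 and 132 CPM in reserve cells, 25.9 and 23.1 CPM in myotubes, and 83.5 and 80.9 CPM in myoblasts, and rose in reserve cells (log2 fold change 0.64, SE 0.078, adjusted p = 1.7e-05) and fell in myotubes (log2 fold change -1.75, SE 0.084, adjusted p = 5.4e-10). Ltbp3 had 426 and 438 CPM in reserve cells, 174 and 168 CPM in myotubes, and 363 and 368 CPM in myoblasts. Its log2 fold changes over myoblasts were 0.24 (SE 0.044) in reserve cells and -1.10 (SE 0.045) in myotubes. Ltbp1 was the exception, since it fell in both populations, with 175 and 179.5 CPM in reserve cells, 129 and 144 CPM in myotubes, and 213 and 209 CPM in myoblasts and log2 fold changes in reserve cells and myotubes of -0.25 (SE 0.06) and -0.63 (SE 0.06) over myoblasts.

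Of the proteoglycans, decorin and biglycan were raised in reserve cells. These small leucine-rich proteoglycans bind collagen fibrils and TGF-beta. Dcn had 97.2 and 98.6 CPM in reserve cells, 13 and 17.2 CPM in myotubes, and 13.1 and 13.8 CPM in myoblasts, and rose in reserve cells (log2 fold change 2.86, SE 0.12, adjusted p = 3.1e-10). Between myotubes and myoblasts its difference was 0.17 (95% interval -0.09 to 0.44, adjusted p = 0.23), which turned to -0.10 with library totals and to 0.35 without myotube replicate 1 (adjusted p = 0.0139). Bgn had 2296 and 2273 CPM in reserve cells, 363 and 379.7 CPM in myotubes, and 599 and 570.3 CPM in myoblasts. It rose in reserve cells (log2 fold change 1.97, SE 0.041, adjusted p = 2.9e-13) and fell in myotubes (log2 fold change -0.65, SE 0.04, adjusted p = 6.4e-09). Per transcript length, Bgn was among the 4 most abundant of the 45 genes in reserve cells, with 2315 ± 14.6 TPM there, 288 ± 11.2 TPM in myotubes and 606 ± 24.4 TPM in myoblasts (SD, n = 2).

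Vcan codes for versican, a large chondroitin sulfate proteoglycan of provisional matrix that binds hyaluronan. It had 277 and 299.7 CPM in reserve cells, 49.9 and 54.6 CPM in myotubes, and 467 and 464 CPM in myoblasts, so that the order ran opposite to that of Bgn for reserve cells and myoblasts. It fell in reserve cells (log2 fold change -0.69, SE 0.055, adjusted p = 2.5e-07) and in myotubes (log2 fold change -3.15, SE 0.061, adjusted p = 5.3e-14). Fmod, or fibromodulin, a relative of lumican, had 1.36 and 1.45 CPM in reserve cells, 0.996 and 0.233 CPM in myotubes, and 0.467 and 0 CPM in myoblasts. Its difference of 2.66 (SE 1.08) between reserve cells and myoblasts did not pass (adjusted p = 0.066), but did in the fit without myoblast replicate 1 (adjusted p = 0.00886), where the remaining myoblast library had 0 counts, as did that between myotubes and myoblasts (adjusted p = 0.0186, against 0.3 with all libraries).

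The lysyl oxidases were divided as well. Lox, the founding member, had 890.4 and 919 CPM in reserve cells, 221 and 240.2 CPM in myotubes, and 410.4 and 424 CPM in myoblasts. Its RNA rose in reserve cells (log2 fold change 1.12, SE 0.047, adjusted p = 4e-10) and fell in myotubes (log2 fold change -0.85, SE 0.048, adjusted p = 2.4e-09). Loxl2, which acts on basement membrane collagen IV, had 4.94 and 5.13 CPM in reserve cells, 2.35 and 1.63 CPM in myotubes, and 56.1 and 53.1 CPM in myoblasts. It fell in both populations compared with myoblasts, with log2 fold change -3.44, SE 0.16, adjusted p = 9.8e-10 in reserve cells and log2 fold change -4.79, SE 0.18, adjusted p = 4.2e-11 in myotubes. No other gene of the 41 fell as far in reserve cells. Lox exceeded Loxl2 in TPM by 202 and 201 times in reserve cells, 106 and 165 times in myotubes, and 8.2 and 8.97 times in myoblasts.

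Loxl1, which is needed for elastin renewal in the mouse, had 259 and 240.0 CPM in reserve cells, 152 and 139 CPM in myotubes, and 165 and 157 CPM in myoblasts, and rose in reserve cells (log2 fold change 0.63, SE 0.061, adjusted p = 1.7e-06). Its difference of -0.15 (SE 0.061) in myotubes (adjusted p = 0.049) did not pass with DESeq2 (adjusted p = 0.154), nor without myotube replicate 2 (0.264), myoblast replicate 1 (0.208) or myoblast replicate 2 (0.0553). Loxl3 had 113 and 94.1 CPM in reserve cells, 38.1 and 33.2 CPM in myotubes, and 88.2 and 84.5 CPM in myoblasts, and fell in myotubes (log2 fold change -1.28, SE 0.1, adjusted p = 1.6e-07). For reserve cells over myoblasts its difference was 0.26 (SE 0.097), which passed in the full fit (adjusted p = 0.042) and not with DESeq2 (adjusted p = 0.087), without reserve cell replicate 1 (0.406) or without myoblast replicate 1 (0.103) or 2 (0.2). Loxl3 overlaps Htra2 on the opposite strand.

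None of the 6 genes of collagen modification and processing differed by 2-fold between reserve cells and myoblasts, where 4 rose and 1 fell. Of all genes, 24.7% rose and 22.4% fell there, 10.5% and 6.35% by at least 2-fold. P4ha1 and P4ha2 code for catalytic subunits of prolyl 4-hydroxylase, which stabilises the collagen triple helix. P4ha1 had 232 and 238 CPM in reserve cells, 147 and 161 CPM in myotubes, and 143 and 132 CPM in myoblasts, and rose in reserve cells (log2 fold change 0.78, SE 0.061, adjusted p = 2.3e-07). In myotubes its difference was 0.17 (SE 0.061) (adjusted p = 0.027), which reversed to -0.11 with library totals and did not pass without reserve cell replicate 1 (adjusted p = 0.0534), reserve cell replicate 2 (0.0519), myotube replicate 2 (0.261) or myoblast replicate 2 (0.281). P4ha2 had 62.1 and 59.4 CPM in reserve cells, 57.9 and 61.2 CPM in myotubes, and 42 and 46.5 CPM in myoblasts, and was higher than in myoblasts in reserve cells (log2 fold change 0.46, SE 0.084, adjusted p = 0.00054) and in myotubes (log2 fold change 0.43, SE 0.084, adjusted p = 0.00054), the second of which did not pass with library totals (adjusted p = 0.13).

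Plod1 and Plod2 code for lysyl hydroxylases, which prepare collagen for crosslinking. Plod2 had 162 and 159 CPM in reserve cells, 49.6 and 49.6 CPM in myotubes, and 117 and 115 CPM in myoblasts, and rose in reserve cells (log2 fold change 0.47, SE 0.061, adjusted p = 2.5e-05) and fell in myotubes (log2 fold change -1.22, SE 0.063, adjusted p = 1.2e-09). Plod1 had 135 and 139.6 CPM in reserve cells, 94.8 and 91.6 CPM in myotubes, and 104 and 103 CPM in myoblasts. It rose in reserve cells (log2 fold change 0.40, SE 0.061, adjusted p = 0.00011), and its difference of -0.15 (SE 0.062) in myotubes (adjusted p = 0.045) did not pass with DESeq2 (adjusted p = 0.119) or without myotube replicate 2 (0.145), myoblast replicate 1 (0.102) or myoblast replicate 2 (0.109). Serpinh1, the collagen chaperone Hsp47, had 770.2 and 729.6 CPM in reserve cells, 387 and 363 CPM in myotubes, and 788 and 738 CPM in myoblasts. Reserve cells and myoblasts overlapped, and their difference was -0.03 (95% interval -0.13 to 0.08), while myotubes were lower than myoblasts (log2 fold change -1.02, SE 0.049, adjusted p = 5.2e-10). Pcolce, an enhancer of the protease that trims fibrillar procollagen, had 376 and 356 CPM in reserve cells, 89.2 and 86.1 CPM in myotubes, and 475 and 470.1 CPM in myoblasts. It fell in reserve cells (log2 fold change -0.37, SE 0.047, adjusted p = 2.2e-05) and in myotubes (log2 fold change -2.43, SE 0.05, adjusted p = 9.6e-14).

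**Figure D3:**
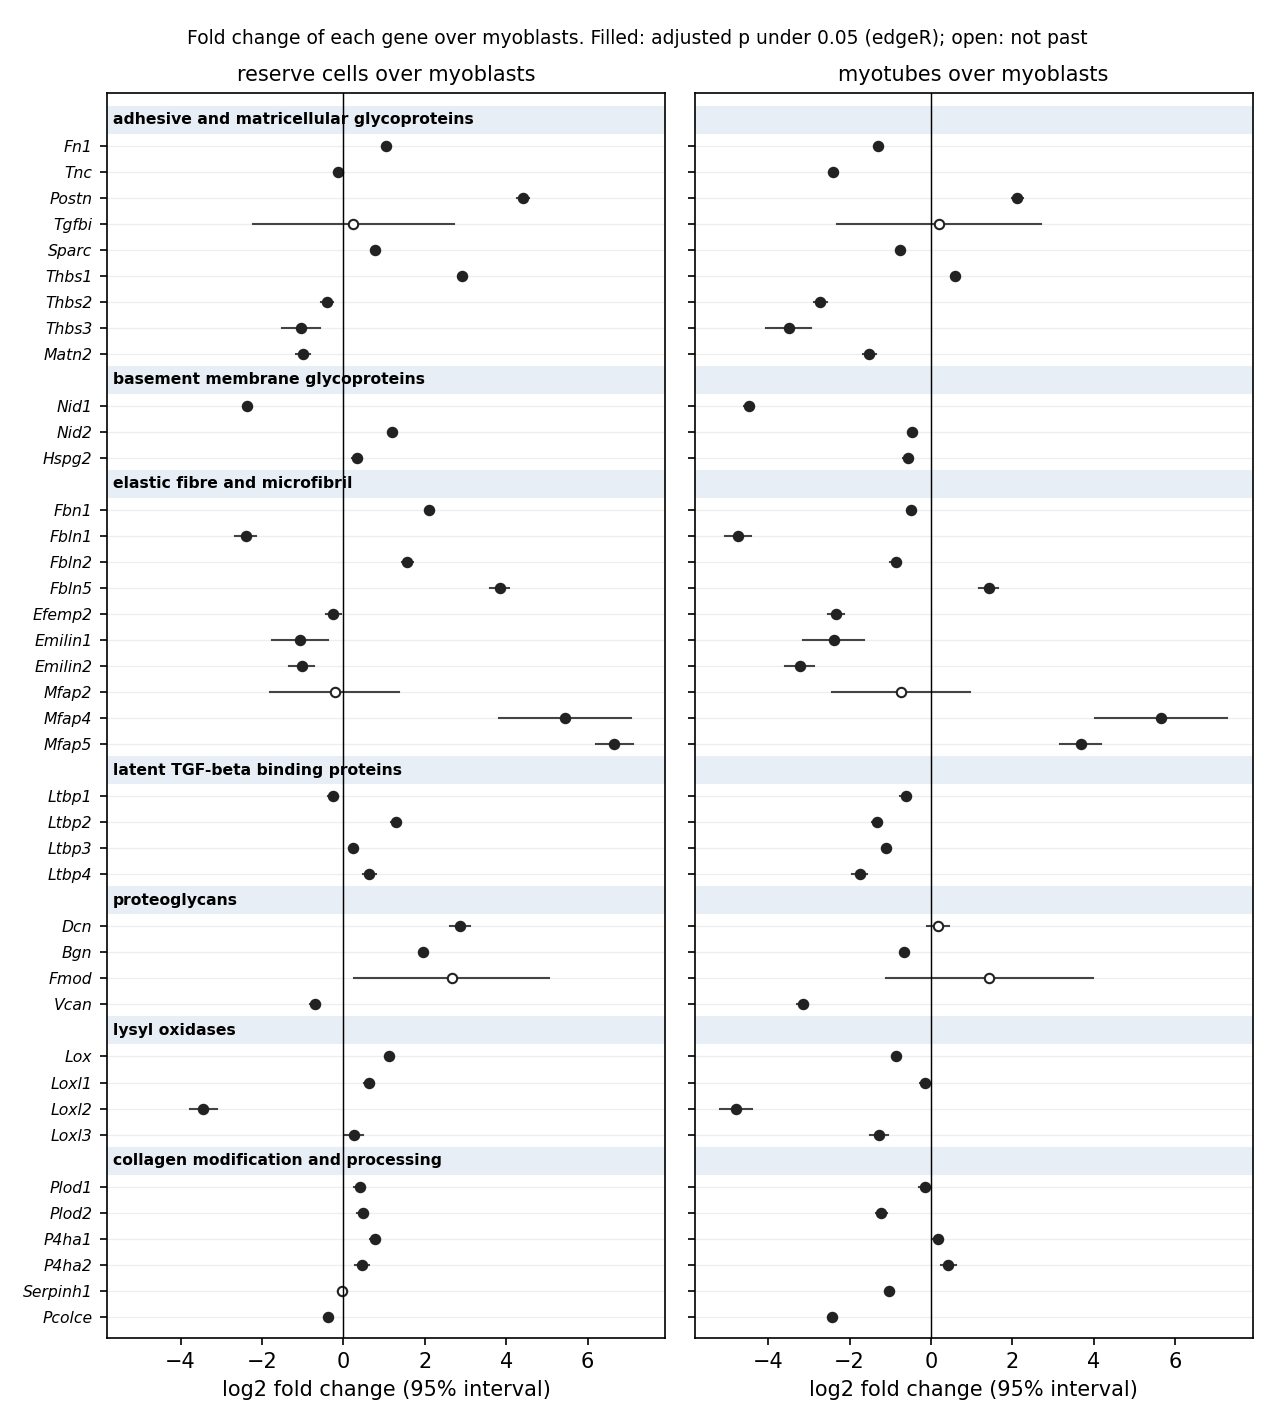
Log2 fold change of 40 genes in reserve cells over myoblasts (left) and in myotubes over myoblasts (right), each with its 95% interval from edgeR, grouped by role. Filled points passed an adjusted p of 0.05 and open ones did not. Efemp1, with 0 counts in myotubes, is not drawn. Mfap5 lies farthest right at the left, at 6.65, and Loxl2 farthest left there, at -3.44, while most points of the right panel lie below 0. The panels share the myoblast libraries.

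Reserve cells and myotubes came from one kind of culture, and between them all 36 genes called were higher in reserve cells. The quartiles of the 41 log2 fold changes were 0.9994 and 2.39. A log2 fold change between 2 and 2.7, bounds chosen after the values were seen, was found for 19 of the 41 genes, which is 46.3%, against 4.3% of all 15467 genes tested. The same band held 16 of 18 collagen chains, 9 of 10 genes of S phase and mitosis and 4 of 6 fibroblast markers, so it was not particular to the 41 genes. The 19 included genes that rose in reserve cells compared with myoblasts as well as genes that fell. Fn1 (2.34, SE 0.035), Thbs1 (2.34, SE 0.037), Fbln5 (2.43, SE 0.1) and Postn (2.30, SE 0.058) were among those that rose over myoblasts. Fbln1 (2.35, SE 0.15), Vcan (2.46, SE 0.06) and Nid1 (2.12, SE 0.045) were among those that fell. Tnc (2.28, SE 0.043) was another, though its log2 fold change in reserve cells over myoblasts was only -0.14.

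As shares of the reserve cell level in CPM, myotubes held 19.7% for Fn1, 19.8% for Thbs1, 20.3% for Postn, 20.7% for Tnc, 23% for Nid1 and 16.3% for Bgn. The largest log2 fold change with counts in both groups was that of Mfap5, at 2.98 (SE 0.15), where myotubes held 12.7%. Smaller differences were seen for Ltbp1 (0.38, SE 0.06), Matn2 (0.53, SE 0.078), Plod1 (0.56, SE 0.062), P4ha1 (0.61, SE 0.061), Loxl1 (0.78, SE 0.061), Hspg2 (0.90, SE 0.054) and Serpinh1 (1.00, SE 0.049), all of which passed. The 5 genes that did not pass were Tgfbi, Mfap2, Fmod, Mfap4 and P4ha2. For P4ha2 the difference was 0.03 (95% interval -0.15 to 0.21), which turned to -0.0099 with DESeq2, -0.0097 with RLE factors and -0.0061 without myotube replicate 1, and reached 0.23 with library totals (adjusted p = 0.0268).

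Other lists were compared between the same groups. Of 7 myoblast and satellite cell genes, 3 were higher and 4 lower in reserve cells than in myotubes. Their median log2 fold change was -0.39, over a range of -1.45 to 2.66. The median log2 fold change of reserve cells over myotubes was 2.29 for the 10 genes of S phase and mitosis, 2.31 for 6 fibroblast markers, of which 4 passed, and -2.15 for 16 sarcomere genes, of which 15 passed. Top2a, a topoisomerase of dividing cells, had 257 and 263 CPM in reserve cells, 49.8 and 52.2 CPM in myotubes, and 557 and 586 CPM in myoblasts, with a log2 fold change of 2.35 (SE 0.052) for reserve cells over myotubes. In reserve cells over myoblasts, 2 fibroblast markers rose and 3 fell, with a median of -0.65. Pdgfrb, a receptor of mesenchymal cells with the largest log2 fold change of the 6 in both comparisons, had 538 and 524 CPM in reserve cells, 80.6 and 93.7 CPM in myotubes, and 194 and 195 CPM in myoblasts, with a log2 fold change of 2.61 (SE 0.066) for reserve cells over myotubes. Myl1, a myosin light chain, had 769 and 781 CPM in reserve cells, 4240 and 4003 CPM in myotubes, and 21 and 21.7 CPM in myoblasts, with -2.41 (SE 0.04) in that comparison. Between reserve cells and myotubes the S phase and mitosis genes thus differed in the direction of the 36 matrix genes and the sarcomere genes in the opposite direction, and in reserve cells over myoblasts 9 of the 10 S phase and mitosis genes fell, with a median of -1.30. The part of these other RNAs in the result was not tested.

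**Figure D4:**
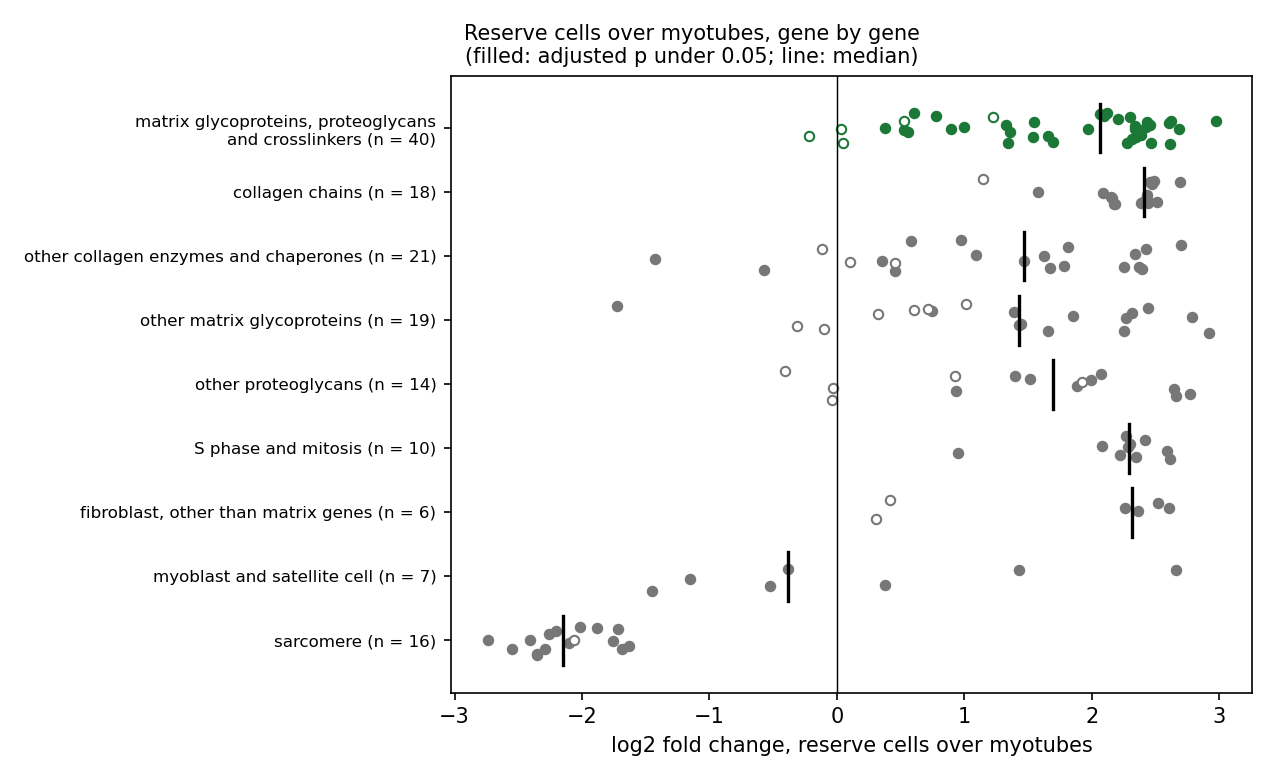
Log2 fold change of reserve cells over myotubes for 40 of the 41 genes tested (green, top row, Efemp1 with 0 counts in myotubes not drawn) and for genes of 8 other lists (grey), 1 point per gene with random vertical jitter. Filled points passed an adjusted p of 0.05 and black lines mark medians, which were 2.06 for the 41 genes, 2.41 for collagen chains, 2.29 for S phase and mitosis and -2.15 for sarcomere genes.

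The wider matrix lists give the setting of these genes. Their counts stand beside the shares of all genes given above for each comparison. Of 18 collagen chains tested, 12 rose and 4 fell in reserve cells compared with myoblasts, 16 fell in myotubes compared with myoblasts and the other 2 did not pass, and 17 were higher in reserve cells than in myotubes and 1 did not pass. Col5a2, a chain of the collagen V that starts fibrils, had 1478 and 1452 CPM in reserve cells, 342 and 349 CPM in myotubes, and 618 and 615 CPM in myoblasts. Col3a1, the chain of collagen III, had 2483 and 2375 CPM in reserve cells, 459.7 and 440.4 CPM in myotubes, and 2042 and 2049 CPM in myoblasts. It differed between myotubes and myoblasts (log2 fold change -2.18, SE 0.039, adjusted p = 2.5e-14). Other collagen enzymes and chaperones (21 tested) counted 12 higher and 4 lower in reserve cells and 5 higher and 11 lower in myotubes, both over myoblasts, and 16 higher and 2 lower in reserve cells over myotubes. Adamts2, the protease that removes the amino propeptide of procollagen, had 112 and 105 CPM in reserve cells, 20.1 and 22.9 CPM in myotubes, and 18.7 and 20.1 CPM in myoblasts.

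Other matrix glycoproteins (19 tested) had 4 genes higher and 7 lower in reserve cells than in myoblasts. In myotubes 1 was higher and 14 were lower than in myoblasts, and 12 were higher and 1 lower in reserve cells than in myotubes. The 1 gene higher in myotubes was Npnt, or nephronectin, an integrin ligand, with 255 and 262 CPM in reserve cells, 846 and 859 CPM in myotubes, and 328 and 348 CPM in myoblasts, so that it was lower in reserve cells than in myotubes. Ccn2, a connective tissue growth factor, had 325 and 334 CPM in reserve cells, 70.6 and 66.3 CPM in myotubes, and 84.5 and 80.5 CPM in myoblasts. Other proteoglycans (14 tested) counted 10 higher and 1 lower in reserve cells and 4 higher and 7 lower in myotubes, both over myoblasts, and 9 were higher in reserve cells than in myotubes and 5 did not pass. Prelp, a relative of decorin that anchors basement membranes, had 142 and 134 CPM in reserve cells, 21.4 and 22.7 CPM in myotubes, and 2.16 and 1.2 CPM in myoblasts. Gpc1, a glypican of the cell surface, had 2302 and 2219 CPM in reserve cells, 2314 and 2312 CPM in myotubes, and 1117 and 1173 CPM in myoblasts, with reserve cells and myotubes both above myoblasts.

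Transcripts within a gene were compared for the 25 genes that had at least 2 transcripts with 5% or more of the gene's counts. In no comparison did a gene pass the test of changed transcript shares (edgeR diffSpliceDGE, Simes p adjusted over 6017 genes). That gave 0 of 25 genes for reserve cells over myoblasts, against 1.73% of all genes tested, 0 of 25 for myotubes over myoblasts, against 3.31%, and 0 of 25 for reserve cells over myotubes, against 1.63%. At an unadjusted p under 0.05 the counts were 2, 1 and 2 in the same order. No other tool was run. Pcolce had the smallest adjusted p of myotubes over myoblasts, 0.059, and of reserve cells over myotubes, 0.13, and Emilin2 that of reserve cells over myoblasts, 0.27. With 1 library left out, Ltbp4, Emilin2, Dcn or Pcolce passed in some fits: Emilin2 without myotube replicate 1 (adjusted p = 0.025) or 2 (0.026) and Ltbp4 without reserve cell replicate 1 (0.018) for reserve cells over myoblasts, Pcolce without reserve cell replicate 1 (0.047) or 2 (0.049) and Dcn without reserve cell replicate 1 (0.034) for myotubes over myoblasts, and Emilin2 without myotube replicate 1 (0.047) and Ltbp4 without reserve cell replicate 1 (0.038) for reserve cells over myotubes.

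Replicates of a group often differed widely in these shares. Pcolce-201 held 23.5% and 85.4% in reserve cells, 85.8% and 86.2% in myotubes, and 75.1% and 28.1% in myoblasts of the counts of Pcolce, so the reserve cell and the myoblast libraries each spanned most of the range. Vcan-203, the versican transcript of 12427 bases, held 62.9% and 67.7% in reserve cells, 54% and 56.4% in myotubes, and 57.8% and 64.1% in myoblasts of the counts of Vcan, and the shorter Vcan-206, of 8332 bases, held 36.2% and 31.6% in reserve cells, 45% and 41.9% in myotubes, and 41.5% and 35.1% in myoblasts. Here the groups lay closer to one another. Thbs1-201 held 99.9% or more of the counts of Thbs1 in all 6 libraries.

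Fn1 is known for exons that encode whole fibronectin type III repeats and are left out of part of its mRNA. Among 17 annotated transcripts, an exon of 273 bases at chr1:71613763-71614035 (GRCm38, minus strand), the length of the extra domain B repeat, was in 1 transcript, Fn1-201. That transcript held 8.46% and 13.6% of the Fn1 counts in reserve cells, 21.6% and 21.7% in myotubes, and 27.3% and 27.3% in myoblasts, so the groups did not overlap. An exon of 270 bases at chr1:71603660-71603929, the length of the extra domain A repeat, was in 4 transcripts, which held 67% and 76.8% of the counts in reserve cells, 73.5% and 66.5% in myotubes, and 73.9% and 71.7% in myoblasts. These groups overlapped. The 3 other exons of like length, 267, 270 and 273 bases, were each in transcripts with 98.7% or more of the counts. Fn1-201 was among 7 Fn1 transcripts in the test of shares above, in which Fn1 did not pass in any of the 3 comparisons (edgeR adjusted p = 1 in each). The exons were looked at after the values were seen, and no separate test was made of them. The shares rest on the division of reads among transcripts by StringTie.

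**Figure D5:**
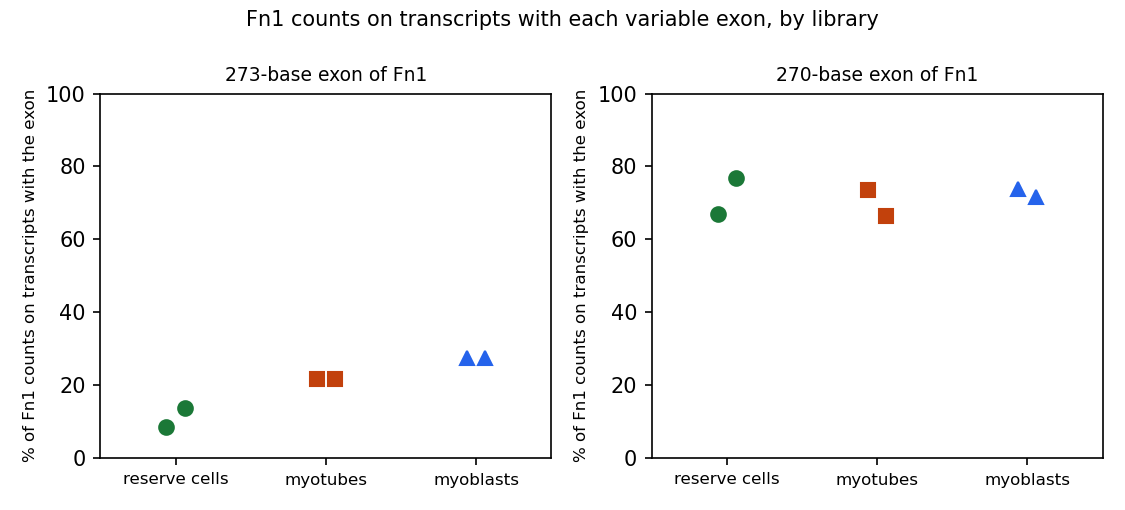
Percent of Fn1 counts on transcripts that hold the variable exon of 273 bases (left) or of 270 bases (right), 1 point per library, with reserve cells, myotubes and myoblasts from left to right. The 273-base exon lies at 8.46% and 13.6% in reserve cells, below both other groups, and the 270-base exon overlaps between groups.

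Promoter sequence was taken for 30 of the 45 genes from RefSeq windows on GRCm38.p6, which run from 250 bases before to 50 bases after a start site. The windows of 3 genes are shown for contrasting patterns, Postn and Bgn with their highest level in reserve cells and Nid1 with its highest level in myoblasts. Capitals mark the searched motifs, on either strand, with TATAAA for the TATA box, CCAAT for the CCAAT box, GGGCGG for the GC box, TGANTCA for the AP-1 motif, CATTCC for the TEAD motif and CAGCTG for the E-box, and the CArG box by its usual form. The GC boxes of Bgn at -10 and -6 share bases, and no other motifs did in these windows.
Postn, chr3:54360857-54361156, plus strand: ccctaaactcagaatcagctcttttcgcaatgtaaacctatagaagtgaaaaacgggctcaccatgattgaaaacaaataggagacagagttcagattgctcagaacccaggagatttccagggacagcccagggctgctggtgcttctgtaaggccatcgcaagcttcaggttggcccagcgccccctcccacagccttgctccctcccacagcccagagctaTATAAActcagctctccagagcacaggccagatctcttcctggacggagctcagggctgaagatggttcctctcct
Bgn, chrX:73483351-73483650, plus strand: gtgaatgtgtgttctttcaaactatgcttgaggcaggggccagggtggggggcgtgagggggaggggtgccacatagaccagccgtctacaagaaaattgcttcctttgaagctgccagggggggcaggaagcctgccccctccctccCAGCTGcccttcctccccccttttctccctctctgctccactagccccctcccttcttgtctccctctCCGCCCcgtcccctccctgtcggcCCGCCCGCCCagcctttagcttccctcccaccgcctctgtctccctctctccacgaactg
Nid1, chr13:13437352-13437651, plus strand: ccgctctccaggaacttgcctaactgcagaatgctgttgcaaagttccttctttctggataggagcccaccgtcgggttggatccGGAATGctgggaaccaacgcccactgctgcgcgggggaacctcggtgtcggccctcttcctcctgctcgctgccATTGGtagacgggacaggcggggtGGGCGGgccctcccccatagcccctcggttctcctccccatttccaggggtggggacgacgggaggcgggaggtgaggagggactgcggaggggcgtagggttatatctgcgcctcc

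The Postn window, 1 of 2 for that gene, held a TATA box that began at position -26 from the start site. The Bgn window held an E-box at -102 and GC boxes at -34, -10 and -6. The Nid1 window held a TEAD motif at -165, a CCAAT box at -91 and a GC box at -67, and none of the 3 windows held an AP-1 motif or a CArG box. Over the 41 windows of the 30 genes, GC boxes were in 65.9%, against 35.7% of all 32851 windows, and the median GC content was 60.3%, against 52.7%. TATA boxes were in 17.1% of the windows of these genes, against 13.6% of all. CCAAT boxes were in 26.8% (37.4% of all), E-boxes in 19.5% (16.3%), TEAD motifs in 9.76% (14.7%), AP-1 motifs in 4.88% (7.81%) and CArG boxes in 0% (1.63%). Windows of 1 gene can overlap, and a match says only that the letters are there.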

How the data were processed

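Reads of polyA RNA (paired ends of 150 bases) were aligned by the authors to mm10 with HISAT2, filtered with SAMtools and quantified with StringTie, per the labels and methods, and the deposited values are estimated counts of each annotated transcript and library, given as whole numbers. For tool versions and strand settings the sources used here give nothing. A second table of the same libraries, in which each value is 2 times the estimated count or 1 less, was not used.

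For each gene, counts of its transcripts were added up with the annotation of GENCODE M21 (GRCm38), after version suffixes had been dropped. This paired 141374 of 142604 transcripts. The 1230 unpaired transcripts took 0.375% to 0.872% of counts and were tested as genes of their own (left out of TPM). The main test was the quasi-likelihood test of edgeR 4.0.16 (R 4.3.3), with 1 fit for the 6 libraries, TMM factors, robust dispersions and genes kept by filterByExpr at 10 counts. P-values were adjusted by the method of Benjamini and Hochberg over the 15467 genes kept, and calls were made at 0.05. The coefficient of biological variation was 12.9%. Intervals are at 95%. TPM used annotated transcript lengths. Transcript shares were tested with diffSpliceDGE.

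All 45 genes are named, with other genes only from marker lists and from the 4 of each pathway list with the smallest adjusted p in a comparison. Members and lists were chosen with earlier results of these data known. Alternatives were DESeq2 1.42.0, RLE factors, library totals, no filter, 10 CPM in 2 libraries, separate fits, a replicate block, fits without each library, and a fit with no genes of the mitochondrial genome. For shares they were a minimum of 10% of the gene, library totals, the block and each library left out, and for TPM the length of the longest transcript. The procedure was tested on simulated data, in which transcript shares varied less between replicates than those of Pcolce did here. Not every overlap of these genes with a neighbour is reported here.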

Additional observations from a re-analysis of the deposited data

How the results depend on the processing

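Under all alternatives run for gene levels, the counts of genes called in each comparison stayed within 1.5 times the counts given above. Counts of changed transcript shares did not, and are given below. With 1 library left out, 22 to 24 genes were higher and 10 to 13 lower in reserve cells over myoblasts, 6 to 8 higher and 28 to 30 lower in myotubes over myoblasts, and 36 higher and 0 lower in reserve cells over myotubes. Over single genes and alternatives, 1639 of 1699 values kept their direction and side of the threshold, 34 no longer passed, 6 passed newly and 20 changed sign, all of the last in genes and comparisons named here. With library totals the sign of myotubes over myoblasts changed for P4ha1 (-0.11), Dcn (-0.10) and Tgfbi (-0.081). That of P4ha2 in reserve cells over myotubes changed with DESeq2 (-0.0099) and RLE factors (-0.0097). Deviations of libraries with the same replicate number were barely correlated between groups (-0.04, 0.058 and 0.018). Such values cannot show whether those libraries came from the same culture. With the number as a block, 24 genes were higher and 13 lower in reserve cells over myoblasts. For myotubes over myoblasts the counts were 7 and 30, and for reserve cells over myotubes 36 and 0. Fmod then passed newly (3.10 in reserve cells over myoblasts, edgeR adjusted p = 0.0354). Tgfbi changed sign (-0.047 and -0.074 in reserve cells and myotubes over myoblasts). With 1 library left out, log2 fold changes ranged for reserve cells over myoblasts from -0.99 to 0.024 (Efemp1), -1.63 to 1.98 (Tgfbi), -0.075 to 0.018 (Serpinh1) and -0.56 to 0.26 (Mfap2). For myotubes over myoblasts they ranged from -0.058 to 0.35 (Dcn) and -1.17 to 1.92 (Tgfbi), and for reserve cells over myotubes from -1.80 to 1.40 (Tgfbi), -0.0061 to 0.075 (P4ha2) and -0.70 to 0.57 (Mfap4). Changed transcript shares were called with 1 library left out in 0 to 1 genes for reserve cells over myoblasts, 0 to 2 for myotubes over myoblasts and 0 to 1 for reserve cells over myotubes. TPM by the longest transcript moved 97 of 135 group means by more than their SD. Where a fit left 1 library in a group, its spread was taken from the other groups. Genes at a few counts (Tgfbi, Mfap2, Fmod, Mfap4) and 2 libraries per group set the limit of what could be told apart.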
